A study of Mus musculus with 18 samples.

Results

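The respiratory chain genes described here encode the nuclear subunits of complexes I to IV of the mitochondrial inner membrane, with some of their assembly factors. They were chosen by symbol: all genes starting with Nduf or Uqcr, the 4 genes Sdha, Sdhb, Sdhc and Sdhd, and all genes starting with Cox4i, Cox5, Cox6, Cox7 or Cox8. Of 89 such symbols in the RefSeq gene table, 72 had a probe on the arrays used here, out of 17178 genes with a probe. Signal was high enough for a test in 69 of the 72, out of 11884 genes tested. Cox4i2, Cox7b2 and Cox8c, tissue isoforms of complex IV subunits, were not well above background on all 3 arrays of any group and were not tested. The other 17 symbols, among them the tissue isoform Ndufa4l2, had no probe here and were not measured.

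Total RNA came from whole bone marrow of female mice of the C3H strain, labelled with Cy3 and hybridised to one-colour 44K arrays (the labels give no genotype beyond the strain). Marrow was taken from mice aged 8 weeks and from mice aged 1 week, in each case from unirradiated mice (control) or from mice given 2 Gy of gamma radiation 6 h or 24 h earlier. There were 6 groups of 3 mice, with 1 array each. Levels are log2 signal minus the 75th percentile of the array, so a level of 0 lies at that percentile, and differences are log2 differences with their standard error from limma over all 18 arrays, n = 3 per group.

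Complex I (NADH dehydrogenase) and complex II (succinate dehydrogenase) pass electrons to ubiquinone, complex III passes them to cytochrome c, and complex IV (cytochrome c oxidase) passes them to oxygen. Complexes I, III and IV pump protons, and ATP synthase uses the gradient. In marrow the chain works in dividing progenitors and in erythroid precursors, whose mitochondria also make haem, while mature neutrophils hold few mitochondria and rely largely on glycolysis.

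The promoters of 4 members are printed because these members were called in 1 direction in most of the comparisons of irradiated with control marrow, Cox6b2 higher and the others lower (Ndufaf5 was also higher once). Among the members with 1 window in the RefSeq table they came first by the number of such calls and then by the mean size of the 4 differences. Each sequence runs 5′ to 3′ on the strand of the gene, from 250 bases before to 50 bases after the annotated start (RefSeq, GRCm38.p6). Capitals mark matches to the motifs of the activators of respiratory chain genes NRF1 (GCGCA, any base, then GCGC), ETS factors including GABP (CCGGAAG) and YY1 (AAGATGGCG), or to a p53 half-site, searched on both strands.
Cox6b2 (chr7:4753045-4753344, minus strand): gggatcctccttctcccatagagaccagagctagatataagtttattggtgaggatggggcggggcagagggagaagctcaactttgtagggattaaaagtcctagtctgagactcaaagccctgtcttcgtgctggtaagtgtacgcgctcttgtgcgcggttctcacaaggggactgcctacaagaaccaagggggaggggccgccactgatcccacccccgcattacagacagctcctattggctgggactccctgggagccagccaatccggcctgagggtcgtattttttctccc
Ndufaf3 (chr9:108567387-108567686, minus strand): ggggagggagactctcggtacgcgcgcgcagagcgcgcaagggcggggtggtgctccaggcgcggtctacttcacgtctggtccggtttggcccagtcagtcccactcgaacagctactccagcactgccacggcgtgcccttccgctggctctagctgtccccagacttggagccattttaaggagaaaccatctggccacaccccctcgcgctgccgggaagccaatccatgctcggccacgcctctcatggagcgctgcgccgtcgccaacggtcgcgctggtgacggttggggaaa
Ndufaf5 (chr2:140170396-140170695, plus strand): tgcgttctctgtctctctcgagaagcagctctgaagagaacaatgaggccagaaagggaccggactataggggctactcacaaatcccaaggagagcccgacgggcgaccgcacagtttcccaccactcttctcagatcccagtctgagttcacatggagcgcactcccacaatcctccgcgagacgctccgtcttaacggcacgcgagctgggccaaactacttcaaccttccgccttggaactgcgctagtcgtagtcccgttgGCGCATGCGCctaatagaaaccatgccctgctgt
Ndufs8 (chr19:3912725-3913024, minus strand): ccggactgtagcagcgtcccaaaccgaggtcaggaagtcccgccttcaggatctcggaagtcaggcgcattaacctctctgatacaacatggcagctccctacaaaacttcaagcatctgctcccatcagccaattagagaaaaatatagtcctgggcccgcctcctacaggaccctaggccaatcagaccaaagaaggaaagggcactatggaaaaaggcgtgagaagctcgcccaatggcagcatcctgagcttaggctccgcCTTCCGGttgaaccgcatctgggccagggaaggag

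Ndufaf5 holds 1 NRF1 match, 16 to 25 bases after the start, and Ndufs8 holds 1 ETS match on the opposite strand, 15 to 21 bases after the start. No match to any of these letters lay in the windows of Cox6b2 and Ndufaf3. The 58 members with a window in the table had 60 windows. Of these windows 13 held the NRF1 motif (21.7%), 12 the ETS motif (20%), 5 the YY1 motif (8.33%) and 3 a p53 half-site (5%). Of all 32851 windows of the same length, 4.6% held the NRF1 motif, 8.86% the ETS motif, 1.4% the YY1 motif and 8.36% a p53 half-site. A match describes letters and is not a binding site.

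As a check of the labels, Cdkn1a, the cell cycle inhibitor induced by p53, lay between 2.31 and 3.06 on the 12 irradiated arrays, against -0.40 to 0.61 on the 6 control arrays, and all 7 p53 targets listed were higher in all 4 comparisons. At least 51.05% and at most 62.09% of probes were well above background on an array. Replicate 2 of the 1-week controls stood apart: it correlated with the other 1-week controls at 0.978 and 0.98 over tested genes, against 0.992 to 0.997 for the other replicate pairs, and carried skeletal muscle and cartilage transcripts at high level (Acta1 at 6.27, against -1.63 and -0.30 on the other 1-week control arrays). The counts over all members that use the 1-week controls are also given without it, with several counts by role and the calls of single genes that depend on it. Leaving it out ended the calls of 13 members at 6 h and 5 at 24 h at 1 week, and of 3 between the controls of both ages. The arrays lay on 5 slides. All 89 differences of named members between arrays of 1 slide had the sign of the difference over all arrays. These members were named for their called differences on the same arrays, so this agreement was favoured in advance and is no separate check of the slides. The labels do not say whether anything but the mouse differed between replicates, and in whole marrow fewer cells of a type and less RNA per cell cannot be told apart.

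The median level of the 69 members was lower at 6 h at 1 week and higher at 24 h at 8 weeks than in controls. On the 8-week arrays the median was 4.28, 4.41 and 4.33 in controls, 4.18, 4.20 and 4.29 at 6 h, and 4.55, 4.66 and 4.68 at 24 h. On the 1-week arrays it was 4.62, 4.75 and 4.63 in controls, 4.34, 4.10 and 4.29 at 6 h, and 4.59, 4.61 and 4.48 at 24 h. At 8 weeks all 3 arrays at 24 h lay above all controls, while the arrays at 6 h overlapped the controls. At 1 week all 3 arrays at 6 h lay below all controls, and those at 24 h lay just below them without overlap.

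**Figure D1:**
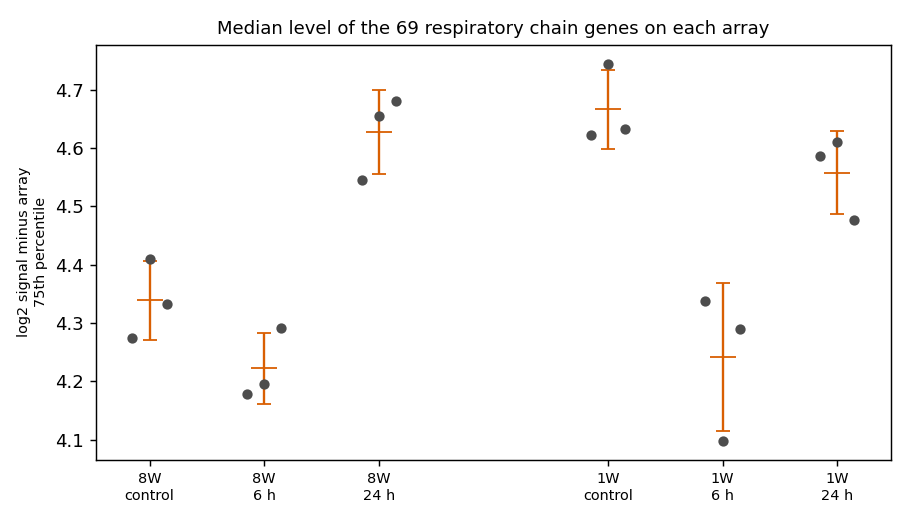
Median level of the 69 tested respiratory chain genes on each array (y axis, log2 signal minus the array's 75th percentile) for the 6 groups (x axis). Points are arrays and bars are means ± SD (n = 3). The 8-week arrays at 24 h (4.55 to 4.68) lie above the 8-week controls (4.28 to 4.41), and the 1-week arrays at 6 h (4.10 to 4.34) lie below the 1-week controls (4.62 to 4.75).

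In 8-week marrow at 6 h, 24 of 69 members were lower and 1 was higher than in controls at an adjusted p below 0.05, against 22.1% of all genes tested called lower, 23.9% called higher and 46% called in either direction. The median difference of the members was -0.15 (range -0.50 to 1.23), against 0.02 for all genes tested. At 24 h, 40 members were higher and 3 lower, against 38.3% of all genes called higher and 19.5% called lower. The median difference was 0.20 for members, against 0.12 for all genes tested, and 62.3% of members were called in either direction, against 57.8% of all genes. This split depended on scaling: quantile normalisation gave 14 higher and 5 lower with a median of 0.07 for members and for all genes, and subtracting each array's median gave 25 higher and 3 lower with medians of 0.12 and 0.04. Background correction by normexp gave 30 higher and 4 lower. A version of it that kept outlier background readings moved 1 array at 24 h by -1.35 and turned the median to -0.25.

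In 1-week marrow at 6 h, 53 of 69 members were lower and 1 was higher than in controls, against 26.3% of all genes called lower, 25.5% called higher and 51.8% called in either direction. The median difference was -0.28, against 0.00 for all genes tested. Without replicate 2 of the 1-week controls, 40 were lower and 1 was higher, with a median of -0.27. At 24 h, 14 were lower and 4 higher, against 17.6% of all genes called lower and 18.4% called higher. Members called in either direction made up 26.1%, against 36% of all genes, and the median difference was -0.10 (all genes -0.01). Without that control array 10 were lower and 4 higher, with a median of -0.06.

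The 6 h and 24 h comparisons of each age share their 3 control arrays. The 2 ages share none. At 6 h, 22 members were lower at both ages (31.9%, against 15.1% of all genes tested) and 1 was higher at both (1.45%, against 13.8%). At 24 h, 4 were higher at both ages (5.8%, against 11.8%) and 2 lower (2.9%, against 6.44%).

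**Figure D2:**
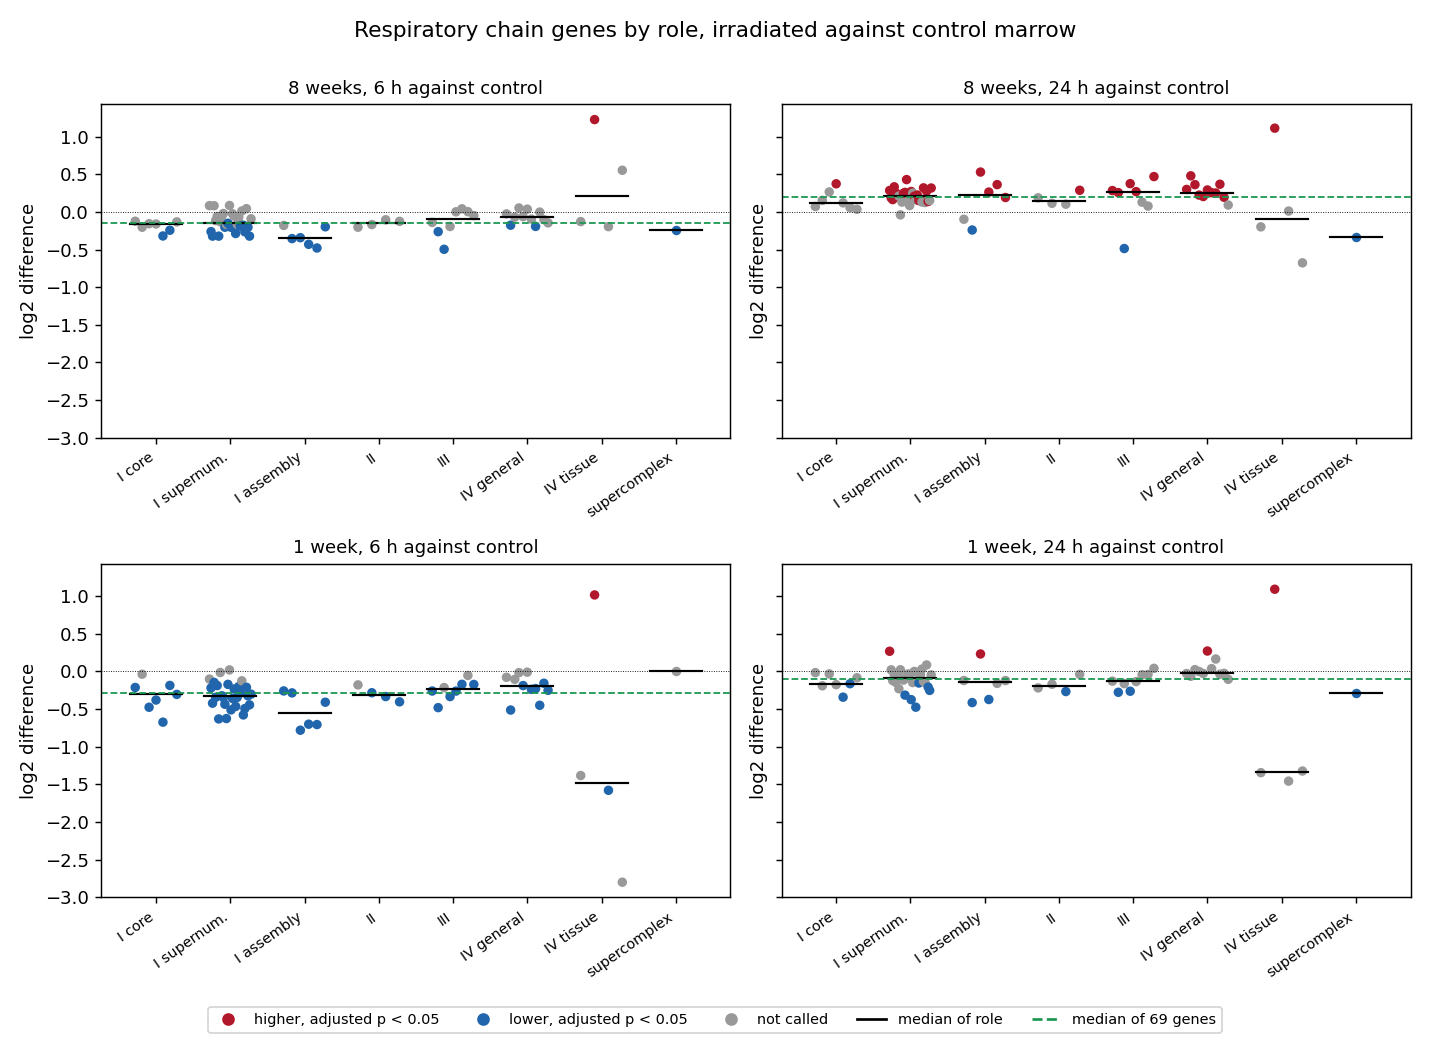
Log2 difference from control (y axis) of the 69 tested genes, grouped by role (x axis), for 8-week marrow (top) and 1-week marrow (bottom) at 6 h (left) and 24 h (right). Each point is a gene, red where higher and blue where lower at an adjusted p below 0.05. Black bars are medians of a role and the green line is the median of the 69 genes (-0.15 and 0.20 at 8 weeks, -0.28 and -0.10 at 1 week).

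The 7 nuclear core subunits of complex I with a probe, which include the carriers of its flavin and iron-sulphur centres, were mostly lower at 6 h at 1 week (6 of 7) and 2 of 7 were lower at 6 h at 8 weeks. Of all genes tested, 22.1% were called lower at 6 h at 8 weeks and 26.3% at 1 week. At 24 h 38.3% were called higher and 19.5% lower at 8 weeks, and 18.4% higher and 17.6% lower at 1 week. These shares apply to all counts by role in the 4 comparisons with controls. A count near its share, such as 2 of 7 here, is no result about its role. Ndufs8, an iron-sulphur subunit, had levels of 1.32, 1.27 and 1.29 in 8-week marrow at 6 h, against 1.43, 1.72 and 1.69 in controls, a difference of -0.32 ± 0.08 (adjusted p = 0.00578). In 1-week marrow at 6 h it had 1.17, 0.96 and 1.26, against 1.74, 1.82 and 1.86 in controls, a difference of -0.67 ± 0.08 (adjusted p = 6.79e-06). The irradiated arrays lay below all controls at both ages. Ndufv1, the subunit that binds NADH, differed by -0.24 ± 0.06 at 6 h at 8 weeks and by -0.19 ± 0.06 at 6 h and -0.16 ± 0.06 at 24 h at 1 week, all called, and by an uncalled 0.06 ± 0.06 at 24 h at 8 weeks. Without replicate 2 of the 1-week controls both its 1-week calls were lost (adjusted p = 0.0586 at 6 h and 0.13 at 24 h by limma). Ndufs1, the largest core subunit, was called only at 1 week at 6 h (-0.21 ± 0.08) among these 4 comparisons, a call lost in 7 of 29 other settings, with an adjusted p of 0.0637 without that array. Core subunits lower at 6 h at 1 week then numbered 4. At 24 h at 8 weeks Ndufs7, which holds the last iron-sulphur centre before ubiquinone, was the 1 core subunit called, at 0.37 ± 0.07. Ndufs3 fell by 0.48 ± 0.12 at 1 week at 6 h.

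The 28 supernumerary subunits surround this core. At 8 weeks 12 were lower at 6 h and 18 higher at 24 h, and at 1 week 24 were lower at 6 h, while 6 were lower and 1 higher at 24 h. At 1 week 18 were lower at 6 h without replicate 2 of the controls, and 4 were lower and 1 higher at 24 h. Ndufa9, bound near the ubiquinone site, was lower at 6 h at 8 weeks (-0.20 ± 0.06) and higher at 24 h (0.26 ± 0.06), and at 1 week it was lower at both times (-0.44 ± 0.06 and -0.32 ± 0.06). At 1 week Ndufb5 differed by -0.46 ± 0.08 at 6 h and -0.48 ± 0.08 at 24 h, and Ndufb2 by -0.51 ± 0.08 and -0.38 ± 0.08. Both are membrane-arm subunits. Ndufab1, the mitochondrial acyl carrier protein, was higher at 24 h at 8 weeks (0.43 ± 0.08) and lower at 6 h at 1 week (-0.63 ± 0.08). Its other probe differed there by 0.34 and -0.33. Ndufa1, needed for the membrane arm, was higher at 24 h at both ages, by 0.28 ± 0.06 at 8 weeks and 0.27 ± 0.06 at 1 week, and was called lower nowhere among the 4. Ndufa6, Ndufb9 and Ndufb11, 3 other membrane- and peripheral-arm subunits, were called in none of the 4. Ndufv3 gave different answers by probe: at 6 h at 1 week the brightest probe differed by -0.30 and its other 2 probes by 0.28 and 0.25, while at 24 h at 8 weeks all 3 were positive, at 0.32, 0.23 and 0.30.

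Of the 6 assembly factors of complex I, 5 were lower at 6 h at 8 weeks and all 6 at 6 h at 1 week. At 24 h 4 were higher and 1 lower at 8 weeks, and 1, Ndufaf4, was higher and 2 lower at 1 week. Ndufaf4, which acts early in assembly, had levels of 1.65, 1.58 and 1.58 in 8-week controls, 1.17, 1.21 and 1.39 at 6 h and 2.07, 2.22 and 2.10 at 24 h. In 1-week marrow it had 1.94, 2.06 and 2.20 in controls, 1.18, 1.32 and 1.37 at 6 h and 2.43, 2.30 and 2.17 at 24 h. At both ages the 6 h arrays lay below and the means at 24 h above those of controls, with no overlap except at 24 h at 1 week. The differences were -0.34 ± 0.08 and 0.53 ± 0.08 at 8 weeks (adjusted p = 0.00326 and 4.93e-05). At 1 week they were -0.78 ± 0.08 and 0.23 ± 0.08 (adjusted p = 1.33e-06 and 0.0381). The call at 24 h at 1 week was lost in 8 of 29 other settings, with an adjusted p of 0.0773 without replicate 2 of the 1-week controls.

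Ndufaf6 differed by -0.48 ± 0.07 at 6 h and 0.36 ± 0.07 at 24 h at 8 weeks, and by -0.71 ± 0.07 at 6 h at 1 week. Ndufaf5, a hydroxylase that modifies the core subunit Ndufs7, differed by -0.43 ± 0.09 and 0.26 ± 0.09 at 8 weeks and by -0.70 ± 0.09 and -0.37 ± 0.09 at 1 week. Ndufaf3, a partner of Ndufaf4 in the same assembly step, was the 1 member called lower in all 4 comparisons (3.57% of all genes tested were). Its levels at 8 weeks were 1.69, 1.79 and 1.80 in controls, 1.42, 1.46 and 1.33 at 6 h and 1.501, 1.62 and 1.44 at 24 h, and at 1 week 1.72, 1.73 and 1.76 in controls, 1.37, 1.40 and 1.58 at 6 h and 1.40, 1.36 and 1.22 at 24 h. Every irradiated array lay below every control of its age. The differences were -0.36 ± 0.07 and -0.24 ± 0.07 at 8 weeks and -0.28 ± 0.07 and -0.41 ± 0.07 at 1 week, the smallest of them with an adjusted p of 0.00644.

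**Figure D3:**
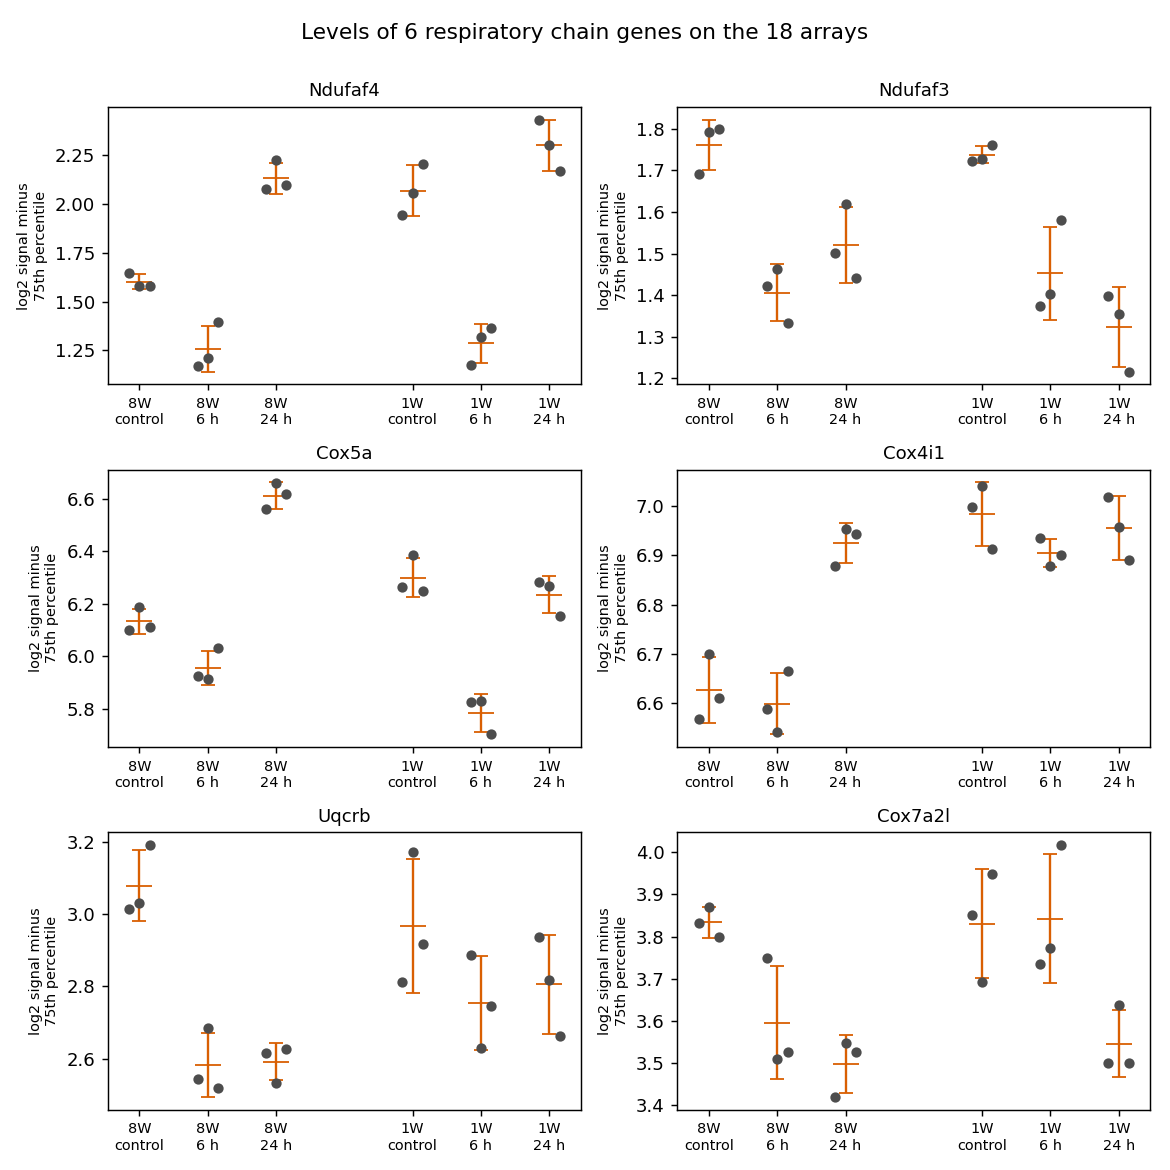
Levels of 6 members on the 18 arrays (y axis, log2 signal minus the array's 75th percentile) for the 6 groups (x axis). Points are arrays and bars are means ± SD (n = 3). Ndufaf4 is low at 6 h and high at 24 h, Ndufaf3 is low at both times, and Uqcrb was called lower at 8 weeks, where it lies at 2.52 to 2.68 at 6 h and 2.53 to 2.63 at 24 h.

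Complex II links the citric acid cycle to the chain. At 6 h at 8 weeks Sdha, Sdhb, Sdhc and Sdhd differed by -0.20 ± 0.09, -0.17 ± 0.08, -0.10 ± 0.07 and -0.13 ± 0.06, not called, and at 6 h at 1 week 3 of the 4 were lower. Sdhd, a membrane anchor, was higher at 24 h at 8 weeks (0.29 ± 0.06) and lower at 6 h at 1 week (-0.40 ± 0.06). Sdhc, the other anchor, was lower at both times at 1 week (-0.33 ± 0.07 and -0.27 ± 0.07), and the iron-sulphur subunit Sdhb was lower at 6 h at 1 week (-0.28 ± 0.08). Sdha, the flavoprotein, was not called in any of the 4. Its difference was 0.19 ± 0.09 at 24 h at 8 weeks, and -0.18 ± 0.09 at 6 h and -0.22 ± 0.09 at 24 h at 1 week. The other Sdha probe differed by 0.04 at 6 h and 0.12 at 24 h at 8 weeks. At 1 week that probe differed by -0.26 at 6 h and -0.43 at 24 h.

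Of the 8 complex III genes, 2 were lower at 6 h and 5 higher and 1 lower at 24 h at 8 weeks, and 6 were lower at 6 h and 2 lower at 24 h at 1 week (5 and 1 without replicate 2 of the 1-week controls). Uqcrq, a small subunit, was higher at 24 h at 8 weeks (0.47 ± 0.07, adjusted p = 1.68e-05), as was the core protein Uqcrc1 (0.38 ± 0.09). Uqcrb, a subunit at the ubiquinone-binding site, ran the other way: its levels at 8 weeks were 3.01, 3.03 and 3.19 in controls, 2.54, 2.68 and 2.52 at 6 h and 2.62, 2.53 and 2.63 at 24 h, and every irradiated array lay below every control. The differences were -0.50 ± 0.09 and -0.49 ± 0.09 (adjusted p = 0.000486 and 0.000317). At 1 week Uqcrb differed by -0.21 ± 0.09 and -0.16 ± 0.09, neither called. Uqcrfs1, the Rieske iron-sulphur protein, was called only at 6 h at 1 week among the 4 (-0.17 ± 0.06). Uqcrh, the hinge protein, was called in none.

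Of the 11 general subunits of complex IV, 2 were lower at 6 h and 10 higher at 24 h at 8 weeks. Of all genes tested 22.1% and 38.3% were, so the count at 6 h lay near its share. At 1 week 7 were lower at 6 h and 1 was higher at 24 h. Without replicate 2 of the 1-week controls 4 were lower at 6 h (Cox5a, Cox7a2, Cox7c and Ndufa4) and 2 higher at 24 h (Cox6c and Cox7b). Cox5a, a matrix-side subunit, had levels of 6.10, 6.19 and 6.11 in 8-week controls, 5.93, 5.91 and 6.03 at 6 h and 6.56, 6.66 and 6.62 at 24 h. At 1 week it had 6.26, 6.38 and 6.25 in controls, 5.82, 5.83 and 5.70 at 6 h and 6.28, 6.27 and 6.15 at 24 h. The 8-week arrays did not overlap between any of the 3 groups, and the 1-week arrays at 6 h lay below all others of that age. The differences were -0.18 ± 0.06 and 0.48 ± 0.06 at 8 weeks and -0.51 ± 0.06 at 6 h at 1 week, with an uncalled -0.06 ± 0.06 at 24 h.

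Cox4i1, the subunit with the ATP-binding regulatory site, was called only at 24 h at 8 weeks among the 4 (0.30 ± 0.05), where its levels were 6.88, 6.95 and 6.94, against 6.57, 6.70 and 6.61 in controls. This call was lost in 2 of 29 other settings, quantile normalisation and normexp. In 1 more, the normexp version that kept outlier backgrounds, the sign changed. Cox7c was higher at 24 h at 8 weeks (0.37 ± 0.08) and lower at 6 h at 1 week (-0.45 ± 0.08). Cox6c was higher at 24 h at both ages, by 0.29 ± 0.06 at 8 weeks and 0.27 ± 0.06 at 1 week. Ndufa4, named for complex I but part of complex IV, was called only at 6 h at 1 week (-0.25 ± 0.07). Cox7a2l, which joins complexes III and IV into supercomplexes, was lower in 3 of the 4 comparisons, with differences of -0.24 ± 0.08 and -0.34 ± 0.08 at 8 weeks and -0.28 ± 0.08 at 24 h at 1 week, and differed by 0.01 ± 0.08 at 6 h at 1 week.

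Cox6b2, an isoform of subunit VIb best known from testis, rose in all 4 comparisons and was the 1 member to do so, against 7.28% of all genes tested. Its levels at 8 weeks were 1.68, 1.38 and 1.58 in controls, 2.77, 2.69 and 2.86 at 6 h and 2.60, 2.66 and 2.72 at 24 h. At 1 week they were 2.19, 2.20 and 2.20 in controls, 3.24, 3.09 and 3.29 at 6 h and 3.39, 3.36 and 3.11 at 24 h. No irradiated array overlapped a control of its age. The differences were 1.23 ± 0.08 and 1.11 ± 0.08 at 8 weeks and 1.02 ± 0.08 and 1.09 ± 0.08 at 1 week, or about 2.34, 2.16, 2.02 and 2.13 times the control level, with a largest adjusted p of 9.79e-08. Its general counterpart Cox6b1 differed by -0.06 ± 0.08 and 0.20 ± 0.08 at 8 weeks and by -0.19 ± 0.08 and -0.03 ± 0.08 at 1 week.

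The isoforms of heart and skeletal muscle, Cox6a2, Cox7a1 and Cox8b, were high on replicate 2 of the 1-week controls, the array rich in muscle transcripts. Cox7a1 had -0.65, -0.80 and -0.87 at 6 h at 1 week, against -0.42, 3.31 and -0.47 in controls, where the second value is that array. Its difference of -1.58 ± 0.64 (adjusted p = 0.0478) became -0.33 ± 0.17 (adjusted p = 0.117) without that array, and the call was lost in 24 of 29 other settings. Cox8b had -5.69, -6.82 and -3.02 in 8-week controls, against -3.89, 3.34 and -2.43 in 1-week controls. These groups overlapped, and only 8 of 18 arrays were well above background. Cox8b was tested only because all 3 arrays of the 1-week controls, the group where it is high, were well above background. Its call enters the count of members lower in 8-week controls, but is not read as an age difference for that reason. The difference of -4.18 ± 1.40 (adjusted p = 0.015 by limma) became -2.01 ± 1.02 (adjusted p = 0.0975) without that array.

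Cox6a2 had 2.11, 2.31 and 2.36 in 8-week controls, against 0.29, 4.03 and 0.39 in 1-week controls, and lay between 1.92 and 2.36 on all 9 8-week arrays. With all arrays the difference of 8-week from 1-week controls was 0.69 ± 0.62 and was not called (adjusted p = 0.348). Without the muscle-rich array it was 1.92 ± 0.15 (adjusted p = 3.41e-08). Acta1, the skeletal muscle actin, was at -2.75, -3.14 and -0.65 on the 8-week control arrays, against -1.63 and -0.30 on the 1-week control arrays other than the muscle-rich one.

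**Figure D4:**
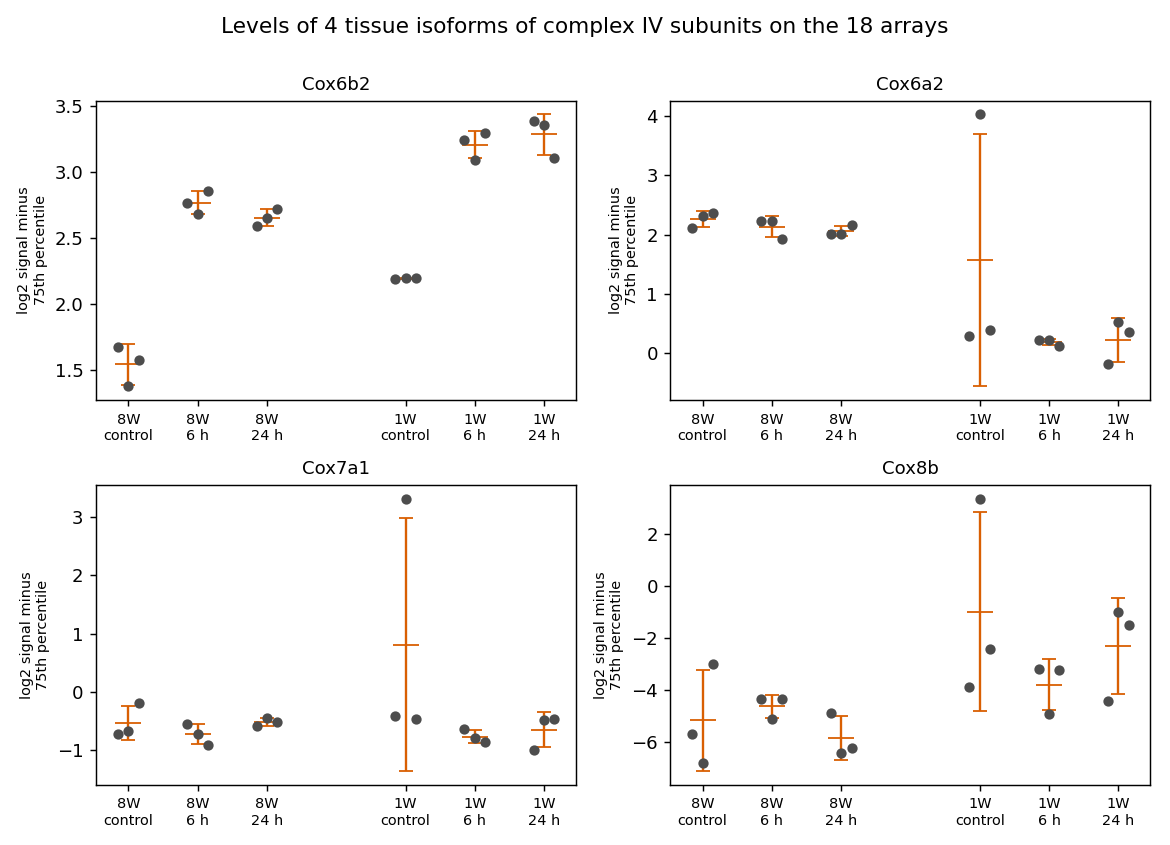
Levels of 4 tissue isoforms of complex IV subunits on the 18 arrays (y axis, log2 signal minus the array's 75th percentile, a different range for each gene) for the 6 groups (x axis). Points are arrays and bars are means ± SD (n = 3). Cox6b2 is higher on all irradiated arrays than on controls of the same age, and 1 array of the 1-week controls is high for Cox6a2 (4.03), Cox7a1 (3.31) and Cox8b (3.34).

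Before any irradiation the chain differed between ages. In 8-week controls 55 of 69 members were lower and 0 were higher than in 1-week controls by limma (56 and 0 at an unadjusted p below 0.05), against 37.5% of all genes called lower, 27.4% called higher and 64.9% called in either direction. The median difference was -0.35, against -0.09 for all genes tested. Without replicate 2 of the 1-week controls, 52 were lower and 3 higher, with a median of -0.32. All 11 general complex IV genes and all 4 complex II genes were lower, with 7 of 8 of complex III, 6 of 7 core subunits and 20 of 28 supernumerary subunits of complex I, and 5 of 6 assembly factors. Without that array 9 of the 11 complex IV genes were lower, as Cox5a and Ndufa4 lost their calls (adjusted p = 0.0959 and 0.0998 by limma), and the counts of complex II, complex III and complex I genes called lower were as before.

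Ndufa5, a peripheral-arm subunit, had levels of 4.63, 4.63 and 4.54 in 8-week controls, against 5.23, 5.60 and 5.16 in 1-week controls, a difference of -0.74 ± 0.09. Ndufv1 had 4.94, 4.92 and 4.86, against 5.55, 5.61 and 5.47 in 1-week controls, a difference of -0.64 ± 0.06 (adjusted p = 7.98e-08). Neither pair of groups overlapped. Cox6b2 differed by -0.65 ± 0.08 and Uqcrc1 by -0.62 ± 0.09. Sdha, Sdhb, Sdhc and Sdhd differed by -0.41 ± 0.09, -0.25 ± 0.08, -0.49 ± 0.07 and -0.42 ± 0.06, Uqcrfs1 by -0.45 ± 0.06, Cox4i1 by -0.36 ± 0.05, Ndufs1 by -0.39 ± 0.08 and Ndufa4 by -0.18 ± 0.07. The value of Sdha came from its brightest probe, and its other probe differed by only -0.11 between the controls. Uqcrb, Cox7a2l and Ndufaf3 differed by 0.11 ± 0.09, 0.00 ± 0.08 and 0.02 ± 0.07, none called. Without that 1-week control array Uqcrb, Ndufa1 and Cox6a2 were called higher in 8-week controls.

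The response itself was compared between ages as the difference at 8 weeks minus that at 1 week. At 6 h it was higher for 11 members and lower for 0 by limma (22 and 1 at an unadjusted p below 0.05), against 10.5% of all genes called higher, 8.09% lower and 18.6% either way, with a median of 0.18 (all genes 0.01). The number called ran from 5 to 13 when 1 array was left out, and was 1 with slide as a fixed block. Without replicate 2 of the 1-week controls 7 were higher and 1 lower, Uqcrb, at -0.39 ± 0.12 (adjusted p = 0.0407). The number called was 5 without replicate 1 or replicate 3 of the 8-week controls, 6 without replicate 3 at 6 h at 8 weeks or replicate 1 at 6 h at 1 week, and 7 without replicate 2 at 6 h at 1 week. At 24 h it was higher for 40 and lower for 0 by limma (45 and 1 unadjusted), against 28.5% called higher, 13.5% lower and 42.1% either way over all genes, with a median of 0.30 (all genes 0.11). Quantile normalisation gave 23 higher and 1 lower at 24 h, and leaving out replicate 2 of the 1-week controls gave 33 higher and 1 lower, Uqcrb. The normexp version that kept outlier backgrounds turned the median at 24 h to -0.14.

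Among members called at 6 h, the largest such differences were those of Ndufab1 (0.46 ± 0.11), Cox7c (0.45 ± 0.11), Ndufaf4 (0.44 ± 0.12) and Ndufc1 (0.40 ± 0.10), each with a less negative difference from control at 8 weeks than at 1 week. At 6 h the other Ndufab1 probe differed from control by -0.05 at 8 weeks and -0.33 at 1 week. Its brightest probe, used here, differed by -0.17 and -0.63. Among members called at 24 h the largest age differences were those of Ndufb2 (0.64 ± 0.11), Uqcrc1 (0.64 ± 0.12), Ndufaf5 (0.64 ± 0.13) and Ndufb5 (0.63 ± 0.11). Uqcrc1, for instance, had 5.40, 5.46 and 5.43 at 24 h at 8 weeks, against 5.12, 5.02 and 5.03 in controls, and 5.45, 5.42 and 5.36 at 24 h at 1 week, against 5.66, 5.68 and 5.68 in controls. Its 8-week arrays lay above their controls and its 1-week arrays lay below theirs. The response of Cox6b2 was not called different between ages, at 0.21 ± 0.12 at 6 h and 0.02 ± 0.12 at 24 h.

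**Figure D5:**
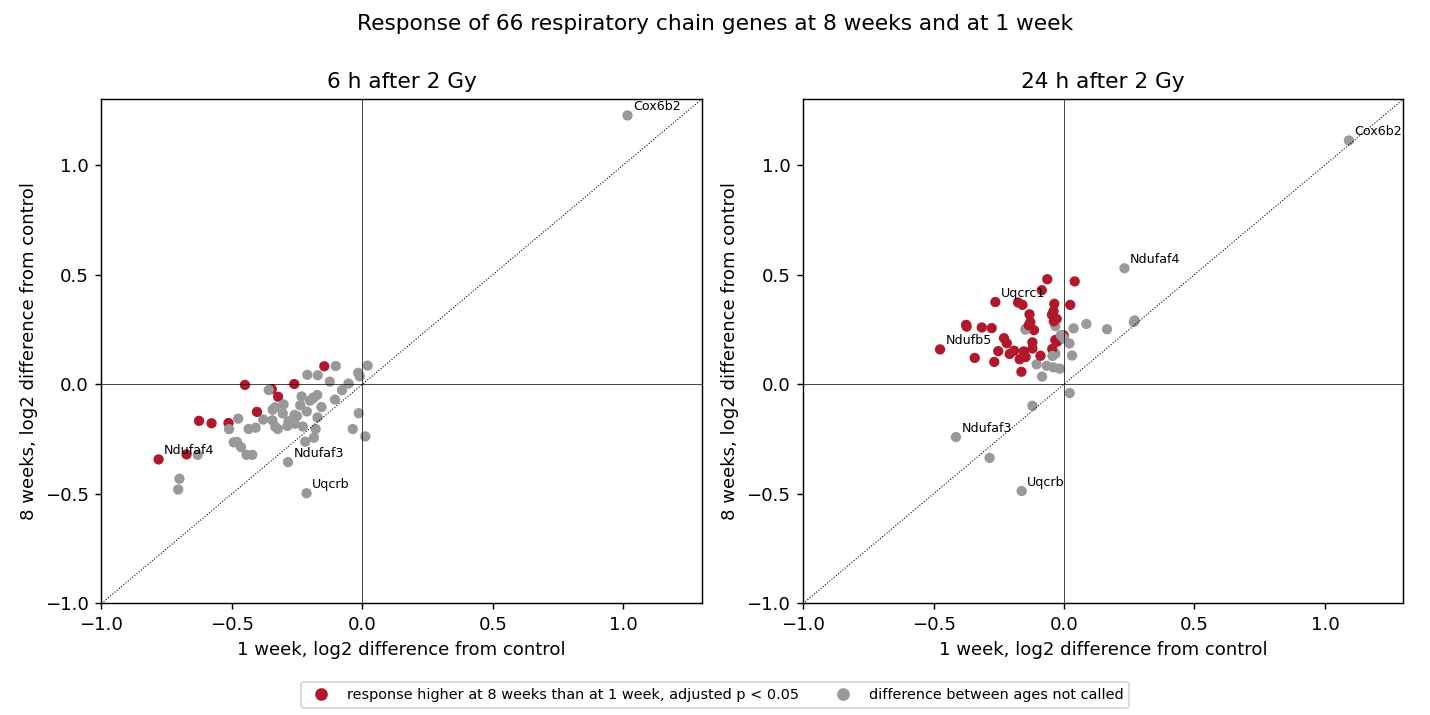
Log2 difference from control at 8 weeks (y axis) and at 1 week (x axis) for 66 members at 6 h (left) and 24 h (right). Each point is a gene, red where the response was higher at 8 weeks by the test of the difference, and the dotted line marks equal responses. The 3 muscle isoforms, set by 1 control array, are not drawn. At 24 h, 40 genes are red and lie above the line, while Cox6b2 lies on it.

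The 2 times after irradiation were also compared with each other. At 8 weeks 54 were higher and 0 lower at 24 h than at 6 h by limma (55 and 0 unadjusted), against 33% of all genes called higher, 16.5% lower and 49.4% either way, with a median of 0.32 (all genes 0.10), and -0.08 in the normexp version that kept outlier backgrounds. At 1 week 30 were higher and 1 lower, against 18.6% of all genes higher, 17.6% lower and 36.2% either way, with a median of 0.19 (all genes 0.00). Among members called, Ndufaf4 had the largest rise at both ages, 0.87 ± 0.08 at 8 weeks and 1.01 ± 0.08 at 1 week, followed by Ndufaf6 at 0.84 ± 0.07 and 0.55 ± 0.07. Cox5a rose by 0.66 ± 0.06 and 0.45 ± 0.06, and Ndufab1 by 0.60 ± 0.08 and 0.54 ± 0.08. Ndufaf5 rose by 0.69 ± 0.09 at 8 weeks. The 1 member lower was Cox7a2l at 1 week (-0.30 ± 0.08). Sdha, Sdhb, Sdhc and Sdhd all rose at 8 weeks, by 0.39 ± 0.09, 0.28 ± 0.08, 0.21 ± 0.07 and 0.41 ± 0.06, and so did Cox4i1 (0.32 ± 0.05), Ndufs1 (0.20 ± 0.08), Ndufv1 (0.30 ± 0.06) and Ndufa4 (0.24 ± 0.07). The rise of Sdha rests on its brightest probe, which differed from control at 8 weeks by -0.204 at 6 h and 0.187 at 24 h. Its other probe differed by 0.037 and 0.118, a smaller rise, and was not tested singly.

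Genes that work with the chain were also counted. Of all genes tested, at 8 weeks 22.1% were called lower and 23.9% higher at 6 h, and 19.5% and 38.3% at 24 h. At 1 week 26.3% were lower and 25.5% higher at 6 h, and 17.6% and 18.4% at 24 h. In 8-week against 1-week controls 37.5% were lower and 27.4% higher. These shares apply to all list counts below. A count near its share, such as 3 of 14 lower at 6 h at 8 weeks, is no result about its list. Of 15 ATP synthase genes tested, 8 were lower at 6 h and 9 higher at 24 h at 8 weeks, and 11 were lower at 6 h at 1 week. Atp5g1, which encodes the proton-carrying c subunit, differed by -0.44 ± 0.08 and 0.46 ± 0.08 at 8 weeks and by -0.80 ± 0.08 at 6 h at 1 week. Of 22 genes for cytochrome c and for partners and assembly factors of complexes III and IV, 6 were lower at 6 h and 14 higher at 24 h at 8 weeks, and 14 were lower at 6 h at 1 week, among them Coa7 (-0.85 ± 0.07) and Uqcc2 (-0.80 ± 0.07). Of 14 further assembly factors of complexes I and II, 3 were lower at 6 h and 6 higher and 2 lower at 24 h at 8 weeks, and 8 were lower at 6 h at 1 week, with Ecsit at -0.78 ± 0.08.

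The 78 genes of the mitochondrial ribosome, which makes the chain's subunits encoded in mitochondrial DNA, had 52 lower and 1 higher at 6 h and 52 higher and 2 lower at 24 h at 8 weeks, and 69 lower at 6 h at 1 week. Mrpl12 differed by -1.18 ± 0.09 at 6 h at 1 week and Mrps6 by 1.00 ± 0.06 at 24 h at 8 weeks. Of 17 citric acid cycle genes, 8 were lower at 6 h and 9 higher at 24 h at 8 weeks. At 6 h at 1 week 12 of them were lower (10 without replicate 2 of the 1-week controls). All 17 were lower in 8-week than in 1-week controls. Of 17 glycolysis genes, 8 were higher and 2 lower at 6 h and 14 higher at 24 h at 8 weeks, while 3 were higher and 8 lower at 6 h at 1 week (5 and 6 without replicate 2 of the 1-week controls). Ldha, lactate dehydrogenase, differed by 0.65 ± 0.06 at 24 h at 8 weeks and -0.48 ± 0.06 at 6 h at 1 week.

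Of 15 regulators of mitochondrial biogenesis, 8 were lower at 6 h at each age. At 24 h at 8 weeks, where 40 of 69 members were higher, 1 regulator was higher and 6 were lower. Tfam, which packages and transcribes mitochondrial DNA, differed by -0.54 ± 0.07 at 6 h at 8 weeks and -0.58 ± 0.07 at 6 h at 1 week. Nrf1 differed by -0.39 ± 0.07 and -0.52 ± 0.07 at 8 weeks, and Gabpa by -0.45 ± 0.10 at 24 h.

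Markers of marrow cell types moved in the same comparisons, and their part in the members' differences was not tested. At 8 weeks the 16 erythroid genes had a summed level (log2) of 9.81 to 9.83 in controls, 10.05 to 10.33 at 6 h and 9.79 to 9.99 at 24 h, with 10 higher and 1 lower at 6 h and 1 higher and 10 lower at 24 h. At 1 week the sums were 10.19 to 10.23 in controls, 10.79 to 10.93 at 6 h and 10.55 to 10.57 at 24 h, with 13 higher at 6 h and 8 higher and 1 lower at 24 h. The 7 early granulocyte genes were all higher at 24 h at 8 weeks, with sums of 10.16 to 10.30, against 9.47 to 9.57 in controls. At 6 h at 1 week 5 of 7 were lower and 1 was higher. Of 12 late neutrophil genes, 11 were higher at 6 h at 8 weeks and all 12 in the other 3 comparisons with controls. Of 11 B-cell precursor genes, all 11 were lower at both times at 8 weeks and 10 at both times at 1 week. Their sums at 8 weeks were 8.52 to 8.64 in controls, 6.98 to 7.28 at 6 h and 6.64 to 6.78 at 24 h. The 12 resident macrophage genes had 11 higher at 6 h and 12 at 24 h at 8 weeks. At 1 week they had 8 lower and 1 higher at 6 h and 11 higher at 24 h. In 8-week against 1-week controls, 13 of 16 erythroid genes were lower and 1 was higher, and all 7 early granulocyte genes and 11 of 12 late neutrophil genes were higher. Of 10 T and NK cell genes 7 were higher at 6 h at 8 weeks, and 8 were higher and 1 lower in 8-week than in 1-week controls. Of 16 skeletal muscle genes 13 were lower in 8-week than in 1-week controls, with sums of 2.15 to 4.22 in 8-week and 3.66 to 10.30 in 1-week controls, and so were all 8 cartilage genes. When replicate 2 of the 1-week controls was left out, 3 of the 16 muscle and 7 of the 8 cartilage genes were lower. Of 3 brown adipocyte and cardiac muscle genes tested, 2 were higher and 1 lower there.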

How the data were processed

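Array files deposited by the authors hold intensity per spot, background-subtracted by Agilent Feature Extraction (release 9.5.1.1 per the file headers, 11.5.1 per the submitters' processing notes), with 0 or 1 flags per spot per the file headers. The series matrix deposited by the authors holds log2 values, found by comparison to be shifted to each array's 75th percentile and centred on each probe's median (r 0.9999 or above on every array). It was an alternative here. Control spots were left out, outlier spots (77 to 123 per array) set aside, and log2 processed signal averaged per probe (41174 probes, of which 24844 matched a RefSeq symbol by accession). The 75th percentile of each array (raw signal 461.5 to 727.6) was subtracted and the brightest probe per gene used. A gene was tested if 1 group or more had its probe well above background on every array and no array had an outlier spot for it.

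limma 3.58.1 in R 4.3.3 fitted 6 group means over 18 arrays, with an intensity trend, and p-values were adjusted (Benjamini-Hochberg) over 11884 genes for each of 9 comparisons. Calls are adjusted p below 0.05. The script was tested on simulated data. The number of arrays limits the precision. The members, lists and motifs were chosen with earlier results of these data known. Named genes are the 4 largest called differences in each direction per comparison, all members called in an age comparison of responses, a list of core subunits and tissue isoforms, and in each other list those with the smallest adjusted p. A few genes that enter the counts are not reported here by name. Genes with pseudogene copies, such as Cox5b, Cox7c, Ndufa12, Ndufab1, Ndufs5 and Uqcrh, may share signal with them. Same-numbered arrays were not paired: 45 pairs correlated at -0.27 to 0.32 in their deviations from group means, with 9 above 0.1. Alternatives covered background correction, scaling, the filter, probe choice, slide, replicate block and leaving out each array.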

Additional observations from a re-analysis of the deposited data

Results flagged for a closer look

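The response to irradiation differed between ages for 11 of 69 members at 6 h and 40 at 24 h, by the limma test of the difference itself (response at 8 weeks minus response at 1 week, log2, adjusted p below 0.05). Of all genes tested, 18.6% were called at 6 h (10.5% higher) and 42.1% at 24 h (28.5% higher), so the count at 6 h lay near these shares. All called members were positive, so their response was higher, or less negative, at 8 weeks. Without replicate 2 of the 1-week controls Uqcrb was called negative at both times (-0.39 at 6 h and -0.43 at 24 h, adjusted p = 0.0407 and 0.0107 by limma). Without that array Ndufa13, Ndufa7, Ndufs8 and Uqcrc2 lost their call at 6 h, and Cox6a1, Cox8a, Ndufa3, Ndufa7, Ndufb8, Ndufv1 and Sdhb at 24 h. Both responses at an age use the same control arrays. With 3 arrays per group no array was tested as an outlier within its group.

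At 6 h the values were as follows. Assembly factors of complex I gave 0.44 for Ndufaf4. Core subunits of complex I gave 0.35 for Ndufs8. Supernumerary subunits of complex I gave 0.23 for Ndufa13, 0.27 for Ndufa7, 0.32 for Ndufa8, 0.46 for Ndufab1 and 0.40 for Ndufc1. The values of Ndufa7, Ndufa8 and Ndufc1 rest on their brightest probes. These differed from control by -0.323, -0.347 and -0.578 at 1 week and by -0.057, -0.022 and -0.178 at 8 weeks. Their other probes differed by -0.163, -0.289 and -0.616 at 1 week and by -0.016, -0.085 and -0.307 at 8 weeks. They lay closer together between ages and were not tested singly. Complex II genes gave 0.28 for Sdhd. Complex III genes gave 0.26 for Uqcrc2. General complex IV subunits gave 0.34 for Cox5a and 0.45 for Cox7c.

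At 24 h there were more. Assembly factors of complex I gave 0.64 for Ndufaf5, 0.52 for Ndufaf6 and 0.31 for Ndufaf7. Core subunits of complex I gave 0.55 for Ndufs7, 0.46 for Ndufs8 and 0.22 for Ndufv1. Supernumerary subunits of complex I gave 0.28 for Ndufa12, 0.37 for Ndufa13, 0.40 for Ndufa2, 0.24 for Ndufa3, 0.44 for Ndufa5, 0.22 for Ndufa7, 0.36 for Ndufa8, 0.58 for Ndufa9, 0.51 for Ndufab1, 0.64 for Ndufb2, 0.63 for Ndufb5, 0.30 for Ndufb7, 0.21 for Ndufb8, 0.45 for Ndufc1, 0.27 for Ndufc2, 0.35 for Ndufs5, 0.40 for Ndufs6 and 0.36 for Ndufv3. The value of Ndufv3 rests on its brightest probe, which differed from control by -0.046 at 1 week and 0.317 at 8 weeks. Its other probes differed by 0.136 and 0.093 at 1 week and by 0.235 and 0.297 at 8 weeks, and were not tested singly. Complex II genes gave 0.41 for Sdha, 0.28 for Sdhb, 0.37 for Sdhc and 0.33 for Sdhd. Complex III genes gave 0.41 for Uqcr10, 0.53 for Uqcr11, 0.64 for Uqcrc1, 0.40 for Uqcrc2 and 0.43 for Uqcrq. General complex IV subunits gave 0.33 for Cox4i1, 0.54 for Cox5a, 0.34 for Cox5b, 0.22 for Cox6a1, 0.40 for Cox7c and 0.22 for Cox8a.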

How the results depend on the processing

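Of 3393 values of named members under 29 alternatives, 2974 kept direction and call, 386 lost the call and 33 changed sign, and of 261 counts 241 stayed within 1.5 times. All 33 sign changes came from normexp on median signals with outlier backgrounds kept, which shifted replicate 3 of the 8-week arrays at 24 h by -1.346 and other arrays by -0.001 to 0.001. Without that setting, 2958 of 3276 values kept direction and call and 318 lost it. With it, the numbers of respiratory chain genes called were 2 (8 weeks, 6 h), 5 (8 weeks, 24 h), 4 (1 week, 6 h), 1 (1 week, 24 h), 3 (8-week against 1-week controls), 0 at 6 h and 0 at 24 h for the age difference of responses by limma (unadjusted, 0 at 6 h and 2 higher and 1 lower at 24 h), and 2 at 8 weeks and 2 at 1 week for 24 h against 6 h. Medians were -0.248 (8 weeks, 24 h), -0.142 (age difference at 24 h) and -0.081 (8 weeks, 24 h against 6 h). Sign changes at 24 h at 8 weeks were Cox4i1 -0.36, Cox5a -0.025, Sdhd -0.20 and Uqcrq -0.032. Those in the age difference at 24 h were Cox4i1 -0.36, Cox5b -0.10, Cox6a1 -0.27, Cox8a -0.31, Ndufa12 -0.33, Ndufa13 -0.23, Ndufa2 -0.060, Ndufa3 -0.39, Ndufa5 -0.12, Ndufa7 -0.25, Ndufa8 -0.32, Ndufaf7 -0.12, Ndufb7 -0.21, Ndufb8 -0.20, Ndufc1 -0.054, Ndufc2 -0.093, Ndufs5 -0.13, Ndufv1 -0.18, Ndufv3 -0.077, Sdhd -0.14, Uqcrc2 -0.33 and Uqcrq -0.056. Those in 24 h against 6 h at 8 weeks were Cox4i1 -0.24, Ndufa4 -0.21, Ndufs1 -0.24, Ndufv1 -0.20, Sdhb -0.14, Sdhc -0.12 and Sdhd -0.018. Quantile normalisation gave respiratory chain counts of 19 (8 weeks, 24 h), 7 and 24 (age difference at 6 h and 24 h), and medians of 0.071 (8 weeks, 24 h), -0.268 (8-week against 1-week controls), 0.176 (age difference at 24 h) and 0.208 (8 weeks, 24 h against 6 h). Subtracting the array median gave 28 calls and a median of 0.12 at 24 h at 8 weeks and 0.207 for the age difference at 24 h. Normexp with outlier backgrounds replaced gave 7 calls and slide as a fixed block 1 call for the age difference at 6 h. Within slide 3 the median at 24 h at 1 week was -0.015, and within slide 2 that of 24 h against 6 h at 8 weeks was 0.409. The cause was not tested for these. Leaving out 1 array gave 5 to 13 calls for the age difference at 6 h, 30 to 42 at 24 h, 18 to 26 (8 weeks, 6 h), 34 to 46 (8 weeks, 24 h), 41 to 56 (1 week, 6 h), 13 to 20 (1 week, 24 h) 53 to 57 (8-week against 1-week controls), and 48 to 55 and 26 to 37 for 24 h against 6 h at 8 weeks and 1 week. Leaving out replicate 2 of the 1-week controls ended 18 calls of named members. With the replicate block there were 23, 44, 52 and 17 calls in those 4 comparisons with controls, 55 between controls, 9 and 38 for the age difference and 54 and 30 for 24 h against 6 h at 8 weeks and 1 week, so no count moved by over 1.5 times. Only 9 of 18 arrays correlated best with their own number, so the numbers were not taken as pairs. Both normexp versions and the array median were chosen after seeing the data. Normexp on mean signals and gene names from the array files were planned but not run, since the files as read here lacked those columns. Signals near background limit Cox8b, well above background on 8 of 18 arrays.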
